A study of Homo sapiens with 8 samples.

Results

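The desmosome genes were 10 genes of the 23391 listed in the count table, found there by their symbols: the desmosomal cadherins DSG2, DSG3, DSC2 and DSC3, the plaque proteins JUP, PKP1, PKP2 and PKP3, the plakin DSP, and PERP. The family was chosen on the measured values of DSG3, whose reads nearly vanished when Esrrb was expressed and when control cells received DY131. The values of DSG3 are therefore given as a description without a test, and the counts below cover the 9 other genes, which were read for whether they followed DSG3. All 10 genes passed the filter on low counts, DSG3 through its level in untreated control cells.

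The libraries came from DU145, a human prostate cancer cell line. Cells carried either the empty pcDNA3.1-zeo(+) vector (DU145-pc3.1, the control) or the same vector with Esrrb, an orphan nuclear receptor (DU145-Esrrb), and both were kept as pooled cells after Zeocin selection. Both were sequenced after vehicle and after 3 μM DY131, a synthetic ligand of Esrrb and Esrrg, which gave 4 groups of 2 replicates: DU145-pc3.1, DU145-Esrrb, DU145-pc3.1 + DY131 and DU145-Esrrb + DY131. Cells of all 4 groups had gone through transfection and Zeocin selection. The cells with each vector were selected apart, so an effect of Esrrb and a difference between the selected cells cannot be told apart. Where a gene is said below to be raised or lowered by Esrrb, this names the comparison of these cells. The length of the DY131 treatment was not given in the sources used here, and p-values measure only the spread between these libraries.

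Desmosomes are junctions that tie the keratin filaments of neighbouring epithelial cells together. Desmogleins (DSG) and desmocollins (DSC) cross the membrane and bind their partners on the next cell. Inside the cell their tails hold plakoglobin (JUP) and plakophilins (PKP), which bind desmoplakin (DSP), and desmoplakin binds the keratins. DSG2 and DSC2 are the cadherins of simple epithelia, while DSG3 and DSC3 are best known from the basal layers of stratified epithelia such as skin, where DSG3 is the main target of pemphigus vulgaris autoantibodies.

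Between 7858743 and 11551690 reads per library were counted on genes. ESRRB, the gene introduced, was at 8.83 and 9.10 cpm (edgeR's unit of reads relative to the effective library size) in DU145-Esrrb cells and 13.7 and 16.2 cpm in DU145-Esrrb + DY131 cells, against 0 to 3 reads in each library without the Esrrb vector. With DY131 in Esrrb cells ESRRB was thus 1.67-fold higher (adjusted p = 0.0031 in edgeR's quasi-likelihood test). The groups of that comparison therefore also differed in ESRRB level. The 4 epithelial markers EPCAM, KRT8, KRT18 and CDH1 summed to between 2108 and 2742 cpm per library. Most of each sum was KRT8 and KRT18, so it does not show whether the 4 markers were stable. From DU145-pc3.1 to DU145-Esrrb + DY131 cells the mean of KRT8 went from 1093 to 1622 cpm and that of KRT18 from 811 to 801 cpm. The mean of CDH1 went from 161 to 67.8 cpm and that of EPCAM from 103 to 78.5 cpm. The fibroblast, immune and endothelial marker lists summed to at most 6.07, 1.41 and 1.29 cpm. The 2 libraries of DU145-pc3.1 + DY131 cells differed most from each other, with a chi-square of 7.34 per degree of freedom over genes, against 1.30 to 2.67 in the other groups.

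DSG3 was counted with 366 and 545 reads in the DU145-pc3.1 libraries. It had 11 and 9 reads in DU145-Esrrb, 11 and 4 reads in DU145-pc3.1 + DY131 and 5 and 5 reads in DU145-Esrrb + DY131 cells. These correspond to 34.9 and 48.0 cpm in the control, 0.93 and 0.83 cpm with Esrrb, 1.03 and 0.40 cpm with DY131, and 0.65 and 0.57 cpm with both. Only the 2 untreated control libraries were high, and the counting intervals of the 6 other libraries overlapped. For the lowest library, with 4 reads, the 95% Wilson interval was 0.150 to 0.990 cpm, and for the highest of the low libraries, with 11 reads, it was 0.578 to 1.85 cpm of the total count, which covers counting error only. The fitted level was 46.4-fold lower with Esrrb (log2 fold change -5.54, SE 0.25) and 56.6-fold lower with DY131 in control cells (-5.82, SE 0.26). Without 1 of the DU145-pc3.1 + DY131 libraries, which held 11 and 4 reads, the DY131 value was -6.66 or -5.32. In cells that already carried Esrrb, the value for DY131 was -0.53 (SE 0.62) on the log2 scale. In bulk RNA, fewer cells with DSG3 transcripts and less DSG3 RNA in each cell cannot be told apart.

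**Figure D1:**
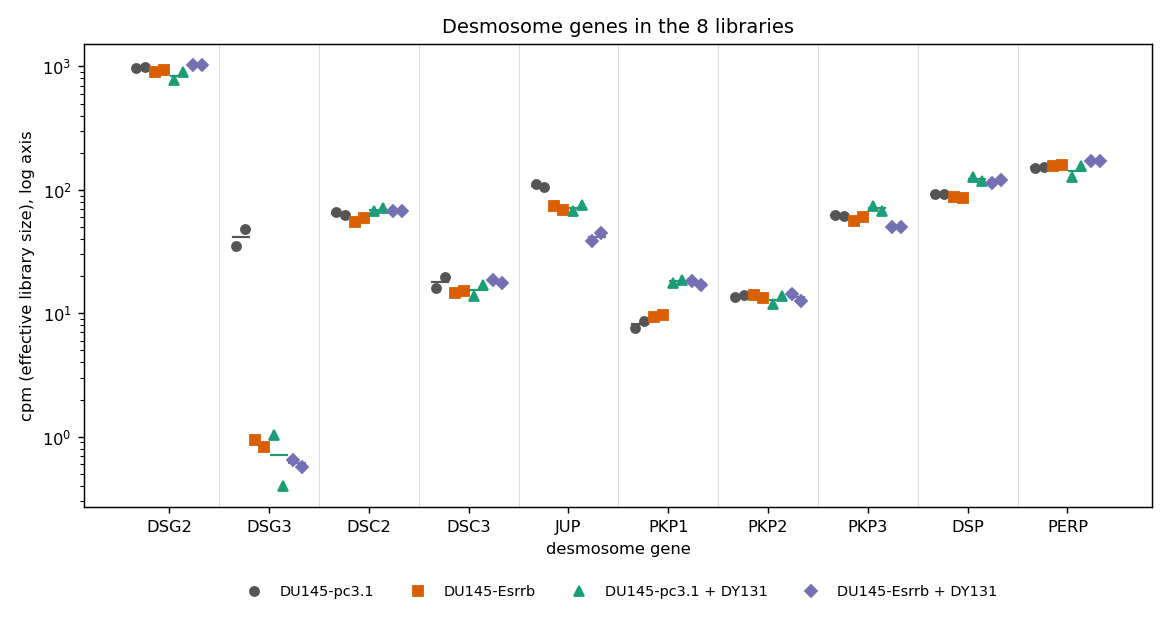
Level of the 10 desmosome genes in each library, in cpm on a log axis. Each symbol is 1 library, and the short line is the mean of the 2 libraries of a group. DSG3 drops from 34.9 and 48.0 cpm in untreated control libraries to 1.03 cpm or less in the 6 other libraries, while each other gene stays within 1 order of the axis.

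The other desmosome genes did not follow DSG3 as a group. Esrrb without DY131 lowered 1 of the 9 other genes, JUP, and raised 0, against 2.50% and 1.68% of the 13856 tested genes that were called lower and higher at an adjusted p under 0.05 with edgeR's quasi-likelihood test. In the same comparison 7 of the 9 had values below 0, with a median log2 fold change of -0.09 (range -0.60 to 0.23), beside a median of 0.00119 over all tested genes. A log2 fold change of at least 1 in size together with an adjusted p under 0.05 was reached by 0 of the 9, against 0.577% of all tested genes. At an unadjusted p under 0.05, 0 of the 9 were higher and 2 were lower, JUP and DSC2. No share of all tested genes is given for this unadjusted threshold, so that count has no background. At an adjusted p under 0.05, edgeR's exact test and DESeq2 also called 1 gene lower and 0 higher. The standard errors of the 9 log2 fold changes were 0.064 to 0.14, so changes of that size were not detectable.

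DY131 in control cells moved 4 of the 9, in both directions. JUP and DSG2 fell, where 18.5% of all tested genes fell. PKP1 and DSP rose, where 18.9% of all tested genes rose. PKP1 was the 1 gene of the 9 past the fold threshold as well, a threshold passed by 4.19% of all tested genes. The median over the 9 genes was -0.10, beside -0.00255 over all tested genes. With 2 of the 9 in each direction, the counts were near the shares of all tested genes.

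**Figure D2:**
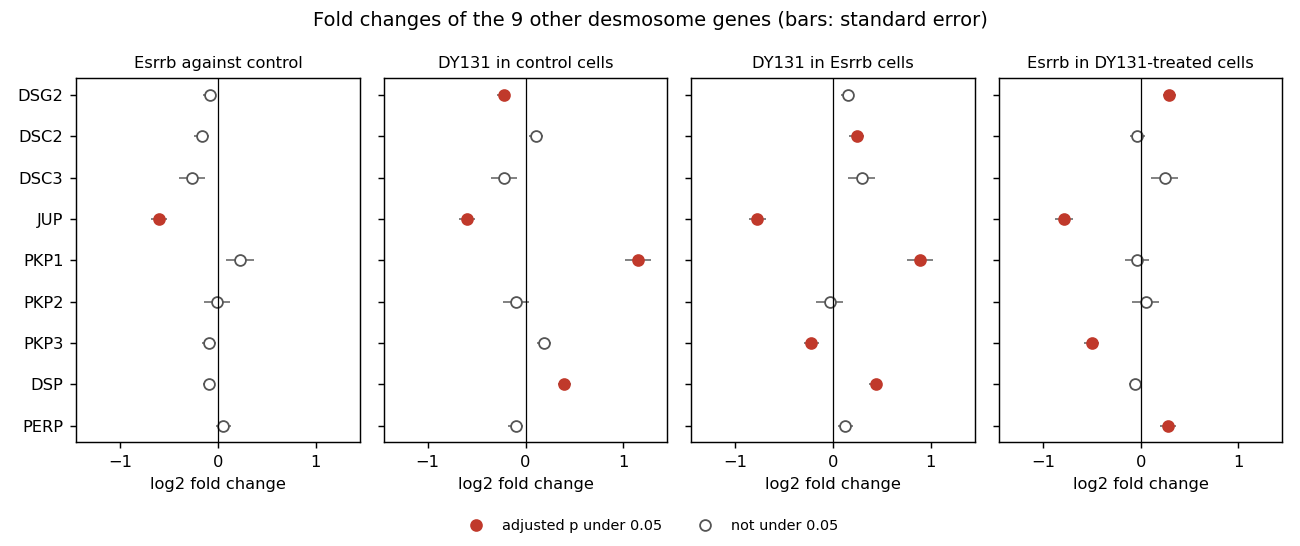
Log2 fold changes of the 9 desmosome genes other than DSG3 in 4 comparisons. Points are the fitted values, bars are standard errors, and filled points have an adjusted p under 0.05. JUP is below 0 with a filled point in each panel, and PKP1 and DSP rise in both panels of DY131. No value reaches the size seen for DSG3 with Esrrb (-5.54) or with DY131 in control cells (-5.82).

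JUP, plakoglobin, is the armadillo protein shared by desmosomes and adherens junctions. It was at 111 and 106 cpm in DU145-pc3.1 and at 74.4 and 68.1 cpm in DU145-Esrrb cells. With DY131 it was at 67.4 and 76.1 cpm in control cells and at 38.7 and 44.5 cpm in Esrrb cells. The control libraries were the highest, the 2 groups with a single change overlapped each other, and the libraries with both changes were the lowest. Esrrb lowered it 1.52-fold (log2 fold change -0.60, SE 0.079, adjusted p = 0.00032) and DY131 in control cells lowered it 1.51-fold (-0.60, SE 0.080, adjusted p = 3.6e-05). DY131 in Esrrb cells lowered it 1.71-fold (-0.77, SE 0.090, adjusted p = 2.9e-06), and Esrrb in DY131-treated cells lowered it 1.72-fold (-0.78, SE 0.090, adjusted p = 4.7e-06). The difference between its responses to DY131 in control and Esrrb cells was -0.18 (SE 0.12, adjusted p = 0.28), and passed the test without replicate 1 of DU145-pc3.1 + DY131 (adjusted p = 0.042). JUP was the 1 gene of the 9 called lower, as DSG3 was low, both with Esrrb and with DY131 in control cells, at a much smaller fold. The calls of JUP in these 4 comparisons held in all alternatives of test, scaling, filter, correction and left-out library.

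A trend with exon structure ran through the comparisons with DU145-Esrrb + DY131 cells. Whether it is technical or a response of the cells was not tested. Over 13606 tested genes, the log2 fold change ran with the share of 50-base windows of a transcript that cross an exon junction, with a Spearman rho of -0.375 for DY131 in Esrrb cells, -0.476 for Esrrb in DY131-treated cells and -0.460 for the interaction. It was -0.0378 for Esrrb against control and 0.0112 for DY131 in control cells. Among the desmosome genes this share ran from 2.31% for PERP to 18.2% for JUP and 21.3% for PKP3. After correction for this share, the values of JUP were -0.71 (adjusted p = 9.0e-06) for DY131 in Esrrb cells and -0.72 (adjusted p = 1.6e-05) for Esrrb in DY131-treated cells.

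DY131 in Esrrb cells moved 5 of the 9 genes. DSP, PKP1 and DSC2 rose, where 29.2% of all tested genes rose, and JUP and PKP3 fell, where 29.5% fell. A log2 fold change of at least 1 in size was reached by 0 of the 9, against 12.0% of all tested genes. The median over the 9 genes was 0.15, beside -0.00449 over all tested genes. Esrrb in DY131-treated cells moved 4 of the 9. DSG2 and PERP rose, where 25.1% of all tested genes rose, and JUP and PKP3 fell, where 25.3% fell, with 0 of the 9 past the fold threshold against 8.21% of all. The comparisons share libraries, so their counts are not independent of each other.

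DSG2, the desmoglein of simple epithelia, was the most abundant of the desmosomal cadherins per length of transcript. It was at 978 and 981 cpm in DU145-pc3.1 and at 902 and 944 cpm in DU145-Esrrb cells. With DY131 it was at 776 and 900 cpm in control cells and at 1025 and 1026 cpm in Esrrb cells. The DY131-treated control libraries lay below and the DY131-treated Esrrb libraries above the untreated libraries of the same cells. DY131 in control cells lowered it 1.17-fold (-0.22, SE 0.066, adjusted p = 0.014), a call that ended without the DY131-treated library at 776 cpm, without either DU145-pc3.1 library, and with only the libraries compared. Its value for Esrrb against control was -0.09 (SE 0.066, adjusted p = 0.57). For DY131 in Esrrb cells DSG2 gave 0.15 (SE 0.066, adjusted p = 0.059), or 0.08 after the junction correction (adjusted p = 0.31). In DY131-treated cells Esrrb raised it 1.22-fold (0.29, SE 0.066, adjusted p = 0.0018), or by 0.21 after the junction correction (adjusted p = 0.019).

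DSC2 and DSC3 are the desmocollin partners of these desmogleins. DSC2 was at 66.0 and 62.3 cpm in DU145-pc3.1, 54.7 and 59.6 cpm in DU145-Esrrb, 67.1 and 71.3 cpm in DU145-pc3.1 + DY131, and 67.0 and 68.0 cpm in DU145-Esrrb + DY131 cells. DY131 in Esrrb cells raised DSC2 1.18-fold (0.24, SE 0.075, adjusted p = 0.012), a call that ended without replicate 1 of DU145-Esrrb, without library b of DU145-Esrrb + DY131, and with DESeq2. Its values in the 3 other comparisons lay between -0.17 and 0.11 and did not pass the test.

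DSC3 is, like DSG3, a cadherin of basal cells, and it lies in the same gene cluster. It was at 16.1 and 19.5 cpm in DU145-pc3.1, 14.7 and 15.1 cpm in DU145-Esrrb, 13.8 and 17.0 cpm in DU145-pc3.1 + DY131, and 18.8 and 17.7 cpm in DU145-Esrrb + DY131 cells. None of its 4 comparisons passed the test, and the values were -0.26 (SE 0.13, adjusted p = 0.34) for Esrrb and -0.22 (SE 0.13, adjusted p = 0.22) for DY131 in control cells. These values lie more than 5 log2 units from those of DSG3.

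PKP1, PKP2 and PKP3 are the plakophilins, armadillo proteins that gather desmoplakin at the plaque, and PKP1 is the one best known from stratified epithelia. PKP1 was at 7.63 and 8.63 cpm in DU145-pc3.1 and at 9.34 and 9.75 cpm in DU145-Esrrb cells. With DY131 it was at 17.6 and 18.7 cpm in control cells and at 18.3 and 17.1 cpm in Esrrb cells. All 4 treated libraries lay above all 4 untreated ones. DY131 raised PKP1 2.23-fold in control cells (1.15, SE 0.13, adjusted p = 9.5e-06) and 1.85-fold in Esrrb cells (0.89, SE 0.13, adjusted p = 3.9e-05), and the difference of these responses was -0.27 (SE 0.19, adjusted p = 0.30). Its value for Esrrb against control was 0.23 (SE 0.14, adjusted p = 0.47).

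PKP2, the plakophilin of heart and simple epithelia, was between 12.0 and 14.2 cpm in all 8 libraries. The libraries of the groups overlapped in each of the 4 comparisons. Its log2 fold changes lay between -0.10 and 0.05, with standard errors of 0.13 to 0.14, and none passed the test.

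PKP3 was at 62.6 and 62.0 cpm in DU145-pc3.1, 56.4 and 60.6 cpm in DU145-Esrrb, 74.0 and 67.7 cpm in DU145-pc3.1 + DY131, and 50.3 and 49.8 cpm in DU145-Esrrb + DY131 cells. DY131-treated control cells were thus the highest group and DY131-treated Esrrb cells the lowest, with no overlap. Esrrb in DY131-treated cells lowered PKP3 1.42-fold (-0.50, SE 0.077, adjusted p = 6.9e-05), and by -0.38 after the junction correction (adjusted p = 0.0011). DY131 in Esrrb cells lowered it by -0.22 (SE 0.078, adjusted p = 0.022), a call that the correction ended (-0.10, adjusted p = 0.29), as did DESeq2 and leaving out replicate 2 of DU145-Esrrb or either DU145-Esrrb + DY131 library. DY131 in control cells gave 0.19 (SE 0.073, adjusted p = 0.054).

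**Figure D3:**
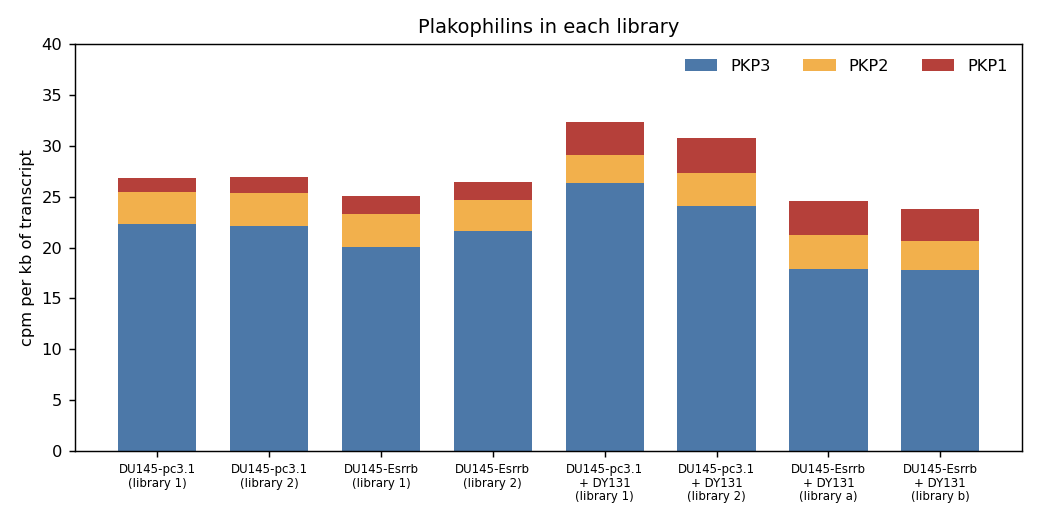
Levels of PKP1, PKP2 and PKP3 in each library in cpm per kb of transcript, stacked. PKP3 makes up most of each bar, and the PKP1 part is larger in the 4 DY131-treated libraries, 3.13 to 3.44 cpm per kb, than in the 4 untreated ones.

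DSP, desmoplakin, the plakin that joins the plaque to keratin filaments, was at 92.8 and 92.1 cpm in DU145-pc3.1, 87.9 and 85.3 cpm in DU145-Esrrb, 126 and 117 cpm in DU145-pc3.1 + DY131, and 115 and 119 cpm in DU145-Esrrb + DY131 cells. All treated libraries were higher than all untreated ones. DY131 raised DSP 1.32-fold in control cells (0.40, SE 0.063, adjusted p = 0.00017) and 1.35-fold in Esrrb cells (0.44, SE 0.065, adjusted p = 3.5e-05). Esrrb gave -0.09 (SE 0.064, adjusted p = 0.51) without DY131 and -0.06 (SE 0.063, adjusted p = 0.49) with it.

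PERP, a tetraspan membrane protein of desmosomes and a target of p53 and p63, was at 152 and 153 cpm in DU145-pc3.1, 156 and 159 cpm in DU145-Esrrb, 126 and 157 cpm in DU145-pc3.1 + DY131, and 172 and 172 cpm in DU145-Esrrb + DY131 cells. Esrrb in DY131-treated cells raised PERP 1.21-fold (0.28, SE 0.080, adjusted p = 0.0084). After the junction correction the value was -0.03 (adjusted p = 0.81), so both the call and its direction were lost. The call also ended without replicate 1 of DU145-pc3.1 + DY131, at 126 cpm, and without either DU145-Esrrb + DY131 library. PERP has the smallest share of junction windows of the 10 genes.

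The response to DY131 differed between control and Esrrb cells for 2 of the 9 genes. For DSG2 the response in Esrrb cells was higher by 0.38 (SE 0.093, adjusted p = 0.0061), in the direction taken by 16.1% of all tested genes. For PKP3 it was lower by 0.41, a difference of -0.41 (SE 0.11, adjusted p = 0.0080), in the direction taken by 17.6% of all. With a difference of at least 1 in size there were 0 of the 9, against 6.28% of all tested genes. After the junction correction the difference was 0.30 (adjusted p = 0.031) for DSG2 and -0.29 (adjusted p = 0.062) for PKP3, and so held for DSG2. DSC3 gave 0.51 (SE 0.19, adjusted p = 0.051), and passed the test without replicate 1 of DU145-pc3.1, without replicate 2 of DU145-pc3.1 + DY131 and with no filter on low counts. The value of DSG3, 5.29, comes with 3 of the 4 groups at 4 to 11 reads.

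Levels can be compared between genes only per length of transcript. In DU145-pc3.1 cells DSG2 was at 168 cpm per kb, PERP at 35.5, JUP at 31.0, PKP3 at 22.2, DSC2 at 13.3, DSP at 11.8, DSG3 at 7.5, PKP2 at 3.21, DSC3 at 2.57 and PKP1 at 1.49 cpm per kb. No neighbours in this order had overlapping libraries. DSG3 moved from rank 7 of the 10 in DU145-pc3.1 cells to rank 10 in each other group, and JUP from rank 3 to rank 6 in DU145-Esrrb + DY131 cells, where it was at 11.9 cpm per kb.

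DSG3 made up a small part of desmoglein RNA even in control cells. Of the summed desmoglein level in cpm per kb, its share was 4.27% ± 0.901 (SD, n = 2) in DU145-pc3.1, 0.101% ± 0.0118 in DU145-Esrrb, 0.0931% ± 0.0659 in DU145-pc3.1 + DY131 and 0.0626% ± 0.00634 in DU145-Esrrb + DY131 cells. DSG2 made up the rest, since DSG1 and DSG4 had 0 reads in every library. The limit taken for a count of 0 was 3 reads, which is 0.382 cpm of the total count, not of the effective size, in the shallowest library. The desmoglein sum was 175 ± 2.13 cpm per kb in DU145-pc3.1, 158 ± 5.13 in DU145-Esrrb, 144 ± 15.03 in DU145-pc3.1 + DY131 and 176 ± 0.113 cpm per kb in DU145-Esrrb + DY131 cells (SD, n = 2). PKP1 made up 5.55% ± 0.467 of the plakophilin sum in DU145-pc3.1 and 6.80% ± 0.0638 in DU145-Esrrb cells, and 10.6% ± 0.856 and 13.4% ± 0.343 in the same cells with DY131.

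The cadherin genes sit together on chromosome 18, in the order DSC3, DSC2, DSC1, DSG1, DSG4, DSG3 and DSG2. In GENCODE 29 on GRCh38, DSG3 (NM_001944) lies on the plus strand at chr18:31447795-31478702 and DSG2 (NM_001943) at chr18:31498043-31549008, 50.2 kb from start to start. The reads had been mapped to hg18, so these positions are not those of the count table. DSC3 (NM_001941) and DSC2 (NM_004949) lie on the minus strand at chr18:30990008-31042815 and chr18:31058840-31102522. JUP (NM_002230) is at chr17:41754604-41786931, DSP (NM_001008844) at chr6:7541575-7586717, PERP (NM_022121) at chr6:138088505-138107511, PKP1 (NM_000299) at chr1:201283452-201332993, PKP2 (NM_001005242) at chr12:32790745-32896840 and PKP3 (NM_007183) at chr11:392614-404908.

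Of the genes around DSG3, only DSG2, DSC2, DSC3 and B4GALT6 had enough reads in control cells to be compared with it, and the lowest of their log2 fold changes for Esrrb and for DY131 in control cells was -0.26, that of DSC3 with Esrrb. DSC1, with 0 to 6 reads per library, and DSG1, DSG4 and TTR, with 0 reads in all libraries, were too low in control cells to show a loss. B4GALT6, a galactosyltransferase gene next to TTR, was at 41.5 and 45.3 cpm in DU145-pc3.1 and at 64.6 and 64.2 cpm in DU145-pc3.1 + DY131 cells, a rise of 0.57 (SE 0.078, adjusted p = 4.6e-05). On the other side of the cluster, CDH2 had 1 read in all, AQP4 at most 2 and CHST9 at most 8 reads per library.

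**Figure D4:**
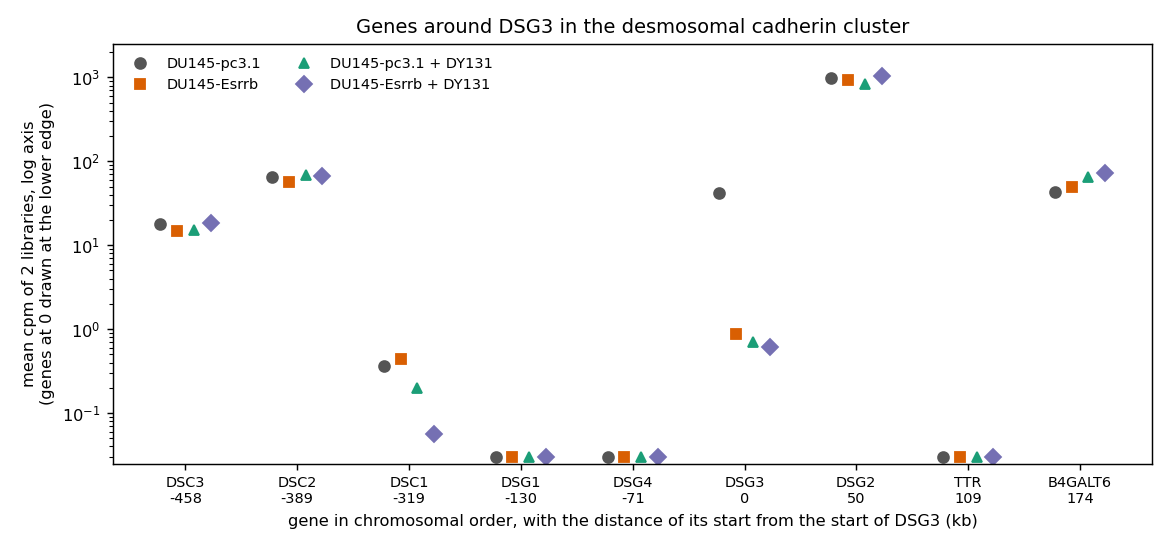
Mean cpm of 2 libraries for the genes around DSG3, in their order on chromosome 18, with the distance of each start from that of DSG3 in kb. Genes with 0 reads are drawn at the lower edge of the log axis. DSG3 is separated by group, while DSG2 beside it and DSC2 and DSC3 across the cluster stay near their control level.

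The stretches before the start of DSG3 and DSG2 are shown because these neighbours took such different courses. They come from RefSeq on GRCh38.p14, plus strand, and end before the annotated start in both RefSeq and GENCODE. Capitals mark each CG pair.
DSG3, chr18:31447491-31447740: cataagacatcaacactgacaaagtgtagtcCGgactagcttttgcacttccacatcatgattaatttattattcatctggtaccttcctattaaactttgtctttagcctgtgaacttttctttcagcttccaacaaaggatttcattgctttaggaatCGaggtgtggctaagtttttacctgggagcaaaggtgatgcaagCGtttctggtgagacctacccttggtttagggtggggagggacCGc
DSG2, chr18:31497927-31498042: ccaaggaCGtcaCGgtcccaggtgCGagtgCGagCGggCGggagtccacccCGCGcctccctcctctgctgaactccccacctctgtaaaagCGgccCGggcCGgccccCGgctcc

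Over the 250 bases before the RefSeq start, DSG3 had 4 CG pairs and a GC content of 42.8%, and DSG2 had 26 and 75.2%. The median over 35116 promoters was 11 CG pairs, and 34.3% of promoters had as few as DSG3 or fewer. The 8 members with a promoter in the table were DSG2, DSG3, DSC2, DSC3, DSP, JUP, PERP and PKP1, with 10 promoters, and the 9 promoters other than that of DSG3 had 12 to 34 CG pairs. The extended site of the estrogen-related receptors, TCAAGGTCA, searched on both strands over 250 bases before to 50 after the start, was in 0 of the 8 members and in 0.353% of all promoters. Its core AAGGTCA was in 0 of the 8 and in 3.92% of all promoters. The hexamer AGGTCA within it was in 1 of the 8, DSC2, and in 13.8% of all promoters. These letters describe the windows alone.

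Among 5 other tested desmosomal and plaque-associated genes (of 9 listed), Esrrb without DY131 moved 0 in edgeR's quasi-likelihood test, as in the exact test and DESeq2, and 0 at an unadjusted p under 0.05. DY131 in control cells raised 3 and lowered 1, where 18.9% of all tested genes rose and 18.5% fell. DY131 in Esrrb cells also raised 3 and lowered 1, with and without the junction correction, where 29.2% of all tested genes rose and 29.5% fell (27.7% and 25.7% after the correction). DESeq2 called 2 rather than 3 higher in both comparisons. PPL, periplakin, a plakin like DSP, was at 79.6 and 68.0 cpm in DU145-pc3.1, 74.4 and 64.7 cpm in DU145-Esrrb, 29.1 and 28.2 cpm in DU145-pc3.1 + DY131, and 45.6 and 47.0 cpm in DU145-Esrrb + DY131 cells. DY131 lowered PPL 2.57-fold in control cells (-1.36, SE 0.096, adjusted p = 1.2e-07) and lowered it in Esrrb cells (-0.59, SE 0.093, adjusted p = 6.4e-05), and so moved it against DSP. PNN, pinin, which is found in nuclear speckles as well as at junctions, rose 2.48-fold with DY131 in Esrrb cells (1.31, SE 0.15, adjusted p = 2.2e-06). In control cells DY131 raised PNN 1.75-fold (0.81, SE 0.15, adjusted p = 0.00051). CDSN, DSG1, DSG4 and DSC1 were not tested because of low counts.

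Of 11 tested adherens junction genes, Esrrb without DY131 raised 1 and lowered 1, beside 1.68% and 2.50% of all tested genes. DESeq2 called 1 higher and 0 lower in that comparison. DY131 raised 3 and lowered 3 in control cells, beside 18.9% and 18.5% of all tested genes. In Esrrb cells it raised 3 and lowered 4, beside 29.2% and 29.5% of all, and after the junction correction 4 rose and 3 fell. CDH3, P-cadherin, was at 480 and 426 cpm in DU145-Esrrb and at 189 and 221 cpm in DU145-Esrrb + DY131 cells, 2.21-fold lower (-1.14, SE 0.088, adjusted p = 4.2e-08). DY131 also lowered CDH3 in control cells (-0.74, SE 0.085, adjusted p = 9.2e-06). CDH1, E-cadherin, which was picked after its values were seen because JUP also binds it, fell with Esrrb (-0.54, SE 0.11, adjusted p = 0.011, not called by DESeq2 or without any 1 of the 4 libraries compared) and with DY131 in control cells (-0.75, SE 0.11, adjusted p = 0.00011).

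Of 16 tested tight junction genes, Esrrb raised 1 and lowered 3, beside 1.68% and 2.50% of all tested genes, and DY131 in control cells raised 4 and lowered 6, beside 18.9% and 18.5%. TJP3, a scaffold protein, fell 4.63-fold (-2.21, SE 0.38, adjusted p = 0.00036) and CLDN4, a claudin, 2.09-fold (-1.06, SE 0.15, adjusted p = 7.3e-05) with DY131 in control cells. In Esrrb cells DY131 raised 4 and lowered 5 of these genes, beside 29.2% and 29.5% of all, and raised 5 and lowered 6 after the junction correction. CLDN1 rose in this comparison 2.64-fold (log2 fold change 1.4, SE 0.080, adjusted p = 2.0e-09). Of 7 tested keratins, Esrrb lowered 1 and raised 0, beside 2.50% and 1.68% of all tested genes. The exact test and DESeq2 each called 2 lower and 0 higher. At an unadjusted p under 0.05, with no share of all genes to set beside it, 2 were lower in each tool. At that threshold 2 were higher in the quasi-likelihood and exact tests and 0 in DESeq2. DY131 raised 1 keratin and lowered 2 in control cells, where DESeq2 called 0 higher and 3 lower, and raised 3 and lowered 2 in Esrrb cells, or 3 and 1 after the junction correction, beside the same shares of all tested genes as for the tight junction genes.

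Among 14 tested regulators of epithelial junction genes, Esrrb raised 1 (0 with DESeq2) and lowered 1, beside 1.68% and 2.50% of all tested genes, and DY131 in control cells raised 3 and lowered 3, beside 18.9% and 18.5%. DY131 in Esrrb cells raised 6 and lowered 3, beside 29.2% and 29.5%, and raised 4 and lowered 5 after the junction correction. ELF3, an epithelial ETS factor, fell 3.90-fold with DY131 in control cells (-1.96, SE 0.15, adjusted p = 3.0e-07). ESRP1 rose 3.65-fold in the same comparison (1.87, SE 0.27, adjusted p = 7.8e-05), from 3.82 and 2.99 cpm to 8.79 and 16.2 cpm. With DY131 in Esrrb cells ESRP1 fell (-2.61, SE 0.77, adjusted p = 0.0087), from 19 and 16 reads to 3 and 1 reads. A further list held 9 tested genes, proteases that act on desmosomal cadherins and inhibitors of proteases. Esrrb lowered 1 and raised 0 in the quasi-likelihood test, beside 2.50% and 1.68% of all tested genes. It lowered 2 and raised 1 in the exact test, and moved 0 in DESeq2. At an unadjusted p under 0.05, 2 were lower and 2 higher in each of these tools. No share of all tested genes is given for the other tools or for the unadjusted threshold, so those counts have no background. DY131 raised 2 and lowered 3 in control cells, beside 18.9% and 18.5% of all tested genes. In Esrrb cells it raised 1 and lowered 8, the inhibitors among the latter, beside 29.2% and 29.5% of all. After the junction correction it raised 1 and lowered 6, beside 27.7% and 25.7% of all, and the calls of ADAM8 and ADAM9, both membrane metalloproteases named here after their values were seen, ended (adjusted p = 0.89 and 0.52). ST14, matriptase, was at 11.4 and 10.5 cpm in DU145-Esrrb and at 5.35 and 4.75 cpm in DU145-Esrrb + DY131 cells, 2.17-fold lower (-1.12, SE 0.23, adjusted p = 0.00067). In control cells DY131 raised ST14 1.53-fold (0.62, SE 0.16, adjusted p = 0.0068), from 17.1 and 15.6 cpm to 19.9 and 30.3 cpm.

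The genes whose pattern was most like that of DSG3 were not junction genes of the lists. By Pearson's r of log2 cpm over the 8 libraries they were PFKFB4 (0.992), FRMD4B (0.978), FGF11 (0.967), AOX1 (0.964) and CYP39A1 (0.959). AOX1, aldehyde oxidase, was at 64.2 and 72.5 cpm in DU145-pc3.1 cells and between 3.74 and 7.44 cpm in the 6 other libraries. The 4 others had a smaller range, PFKFB4 for instance from 45.9 and 44.6 cpm in DU145-pc3.1 cells to between 30.4 and 33.6 cpm elsewhere. The libraries of a group share their vector and treatment, so these values describe the order of the 4 groups and rest on few independent points.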

How the data were processed

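RNA of DU145 cells was sequenced in 8 libraries. The authors' reads, trimmed with the FASTX-Toolkit, were aligned by TopHat2 to hg18, and the deposited values are unnormalized counts of reads per gene from the authors' MULTICOM-MAP program. Strand and multiply mapped reads are not described in the sources used here, and the desmosome genes shared 0 to 7.10% of 50-base windows with other genes. Groups came from the sample labels. The 2 columns of DU145-Esrrb + DY131 cells carry no replicate number and are called a and b.

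The 13856 genes that reached 1 cpm in 2 or more libraries were fitted in 1 model of 4 groups with edgeR 4.0.16 in R 4.3.3, with TMM scaling, quasi-likelihood tests and p-values adjusted by Benjamini-Hochberg across those genes. Cpm use effective library sizes. Lengths, junction windows and positions came from GENCODE 29, matched by RefSeq identifier for 22019 genes and by symbol for 722, with 650 unmatched. Of the symbols, 28 had been turned into dates. The steps were tested on simulated data. PCR copies were not told apart, so intervals and floors hold for counting error alone.

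The text names the members, the 5 genes most like DSG3, up to 3 genes per list and comparison past an adjusted p of 0.05 and a log2 fold change of 1 in size, the cluster's neighbours and ESRRB. CDH1, ADAM8 and ADAM9 were named in addition, after their values were seen. Values for some list genes that met this rule are given as counts only. The members and lists were chosen with earlier results of these data known. Alternatives were edgeR's exact test, DESeq2 1.42.0, its size factors or no TMM in edgeR, no filter or a filter at 5 cpm, a fit of the compared libraries only, a replicate block, each library left out, a junction correction and the fold threshold. A further marker list is not reported here.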

Additional observations from a re-analysis of the deposited data

Results flagged for a closer look

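The response to DY131 differed between DU145-Esrrb and DU145-pc3.1 cells for DSG2, by 0.38 on the log2 scale, and for PKP3, by -0.41, each tested as the interaction term in edgeR. For DSG2 the value was -0.22 in control cells and 0.15 in Esrrb cells, and for PKP3 it was 0.19 and -0.22. Of these, 0.15 for DSG2 (adjusted p = 0.059) and 0.19 for PKP3 (adjusted p = 0.054) did not pass edgeR's quasi-likelihood test. After the correction for exon junction share the difference of PKP3 was -0.29 and did not pass the test. The DY131-treated control libraries, which enter both differences, differed most between replicates.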

How the results depend on the processing

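The count for Esrrb against control, 1 gene of 9, was 1 in each of the 10 other tests, scalings, filters and blocks and in the 8 fits with a library left out. Requiring a log2 fold change of at least 1 in size as well gave 0 genes for Esrrb against control, 1 for DY131 in control cells and 0 for DY131 in Esrrb cells, for Esrrb in DY131-treated cells and for the interaction. With a library left out, the count for DY131 in control cells ran from 3 to 7, and 7 came without replicate 2 of DU145-pc3.1 + DY131. For DY131 in Esrrb cells it ran from 3, without library b of DU145-Esrrb + DY131, to 8, without either DU145-pc3.1 + DY131 library, and was also 8 with only the libraries compared. The genes that joined the calls were DSC3, PKP3 and PERP for DY131 in control cells without replicate 2 of DU145-pc3.1 + DY131, and DSG2, DSC3 and PERP for DY131 in Esrrb cells without either library of that group. For Esrrb in DY131-treated cells it ran from 3 to 5. For the interaction it ran from 2 to 4, with 4 without replicate 2 of DU145-pc3.1 + DY131, and the junction correction left 1. PERP in Esrrb against control under DY131 turned to -0.027 with that correction. Of the 16 moved values without a test, 10 were levels from library size alone and 6 were fold changes of DSG3. The calls of PKP1 and DSP for DY131 in both kinds of cells held in all alternatives of test, scaling, filter, correction and left-out library. The replicate numbers did not pair the libraries (correlations of deviations 0.0917, 0.0229 and -0.0685), and the replicate block over the 6 numbered libraries gave 1 gene for Esrrb against control and 4 for DY131 in control cells, as did the fit without it. The interaction had no exact test, and DY131 in Esrrb cells had no block. With 2 libraries a group, small changes are hard to detect, and DSG3 rests on 4 to 11 reads in 6 libraries.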
